A study of Macaca mulatta with 18 samples.

Results

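The genes of the kinesin, dynein and myosin motors were taken from brain RNA-seq of rhesus macaques as the genes whose listed symbol begins with KIF and a digit or C, DYNC1, DYNC2, DNAH and a digit, MYO and a digit, or MYH and a digit. The rule found 93 of the 30246 listed genes, namely 39 kinesins, 17 dyneins and 37 myosins. DYNC2H1 had 2 listed loci, and the one with the higher FPKM was used. The 18 libraries came from the cerebellum (CER), striatum (STR) and prefrontal cortex (PFC) of 3 monkeys of Chinese origin, aged 10.5, 11 and 11.5 years, and 3 monkeys of Indian origin, aged 7.5, 15 and 16 years. The same 6 monkeys gave all regions, both origins held both sexes, and all monkeys ate a stock diet before post-mortem sampling. Only the Indian-origin group had spent its whole life at the primate centre, as the other group arrived in early adulthood, so that origin, early housing and age range cannot be told apart.

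Kinesins and dyneins step along microtubules, most kinesins towards the plus end and dynein towards the minus end, and in neurons they carry vesicles, mitochondria and receptors along axons and dendrites. Myosins pull on actin and serve short-range transport, the growth of protrusions and contraction. Axonemal dyneins beat cilia, and many other kinesins build the spindle of dividing cells.

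Each region's table holds 1 pooled FPKM (fragments per kilobase of exon, normalised to sequencing depth) per gene and origin. No gene has a value per monkey in these tables, so no spread between monkeys is given, and the ratios below carry no test. The tables give no read counts, and the read numbers in the study's supplement are not used here. A difference between origins is therefore named only as a ratio past 1.5-fold, in genes with a mean FPKM of at least 1 over both origins in the region. A difference between regions is named where the ratio passed 2-fold the same way in both origins, in genes with a mean FPKM of at least 1 over the 4 values. A gene can reach that mean through 1 region alone, with values under 1 in the other. Likewise, a gene can reach the mean over both origins through 1 origin alone. Across all genes log2 ratios of Chinese over Indian origin had a median of 0.10 (CER), 0.31 (STR) or 0.19 (PFC), and counts relative to that median are given beside the plain ones. The labelled regions were checked against marker genes. All 10 cerebellar markers were past 2-fold higher in CER than in STR and than in PFC, all 9 striatal markers were higher in STR than in PFC, and 9 of 11 markers of cortical projection neurons were lower in STR than in PFC. In bulk tissue, fewer cells of a type and less RNA per cell cannot be told apart.

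Motor genes passed low and high FPKM minimums about as often as other genes, and a few transport motors stood far above the rest. A mean FPKM of at least 1 was reached by 50 of 93 motor genes in CER, 56 in STR and 53 in PFC, which is 53.8%, 60.2% and 57.0%, beside 55.5%, 55.5% and 55.3% of all listed genes. A mean FPKM of at least 10 was reached by 29 motor genes in CER, 34 in STR and 31 in PFC, which is 31.2%, 36.6% and 33.3%, beside 36.3%, 33.5% and 33.5% of all listed genes. KIF5C, a neuronal heavy chain of kinesin-1, the main plus-end motor of axonal transport, had the highest level of all members. Its FPKM in CER was 532 in Chinese-origin monkeys, against 499 in Indian-origin ones. The Chinese-origin and Indian-origin values were 469 and 367 in STR, and 488 and 415 in PFC. The KIF5C locus spans chr12:12633831-12686955 on the mmul1 build. The second kinesin-1 gene of the list, the broadly expressed KIF5B, had 83.9 FPKM in Chinese-origin against 78.4 in Indian-origin CER, 101 and 85.8 in STR, and 65.2 and 55.1 in PFC.

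The other abundant kinesins belonged to several classes. KIFC2, a C-terminal kinesin-14, had 174 FPKM in Chinese-origin against 153 in Indian-origin CER, 141 and 109 in STR, and 126 and 108 in PFC. KIF1A, the kinesin-3 that carries synaptic vesicle precursors, had 81.4 and 75.9 FPKM in Chinese-origin and Indian-origin CER, 81.6 and 52.2 in STR, and 117 and 110 in PFC. KIF21A, a kinesin-4 that restrains microtubule growth, reached 104 and 95.5 FPKM in Chinese-origin and Indian-origin CER, against 75.8 and 66.7 in PFC. KIF3C, a kinesin-2, was at 60.2 and 55.6 FPKM in Chinese-origin and Indian-origin CER, 53.9 and 37.2 in STR, and 84.6 and 79.5 in PFC. KIF2A, a kinesin-13 that takes microtubules apart at their ends, lay between 30.4 and 41.0 FPKM in all 6 pooled values. KIF9 of the kinesin-9 class, found in motile cilia, was highest in STR with 35.4 FPKM in Chinese-origin against 35.0 in Indian-origin monkeys, and KIF22, a chromosome-binding kinesin-10, lay between 10.5 and 16.3 FPKM. Summed over the 39 kinesins found by symbol, FPKM came to 1391 in Chinese-origin against 1285 in Indian-origin CER, 1311 and 1007 in STR, and 1319 and 1152 in PFC. KIF5A, which the symbol rule missed, is not in these sums. It had 193 Chinese-origin and 166 Indian-origin FPKM in CER, 846 and 778 in STR, and 798 and 796 in PFC. With KIF5A added, CER would be the lowest region and not the highest.

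Cytoplasmic dynein-1, the minus-end motor of retrograde transport, was high in all its listed subunits. Its heavy chain DYNC1H1 had 88.0 FPKM in Chinese-origin against 83.1 in Indian-origin CER, 76.2 and 57.3 in STR, and 100 and 93.5 in PFC. The light intermediate chain DYNC1LI2 was the highest dynein gene by mean level, with 82.0 and 75.2 FPKM in Chinese-origin and Indian-origin CER, 111 and 83.0 in STR, and 84.4 and 74.7 in PFC. The 4 dynein-1 genes found by symbol together summed to 310 FPKM in Chinese-origin against 302 in Indian-origin CER, 310 and 247 in STR, and 330 and 293 in PFC. The 11 axonemal heavy chains summed to only 3.06 Chinese-origin and 3.11 Indian-origin FPKM in CER, 5.29 and 4.20 in STR, and 6.55 and 4.87 in PFC. Of these 11, DNAH2 alone passed the minimum between origins in any region.

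Among myosins, the nonmuscle heavy chain MYH10 had the highest level, with 53.8 FPKM in Chinese-origin against 47.5 in Indian-origin CER, 74.1 and 59.5 in STR, and 80.2 and 68.6 in PFC. MYO6, the myosin that walks towards the minus end of actin, had 39.1 and 39.9 FPKM in Chinese-origin and Indian-origin CER, 47.1 and 44.8 in STR, and 30.3 and 27.7 in PFC. MYO18A, a myosin XVIII, lay between 24.4 and 31.8 FPKM. MYO9B, a myosin IX, lay between 12.4 and 20.8 FPKM, and MYO10, a myosin of filopodia, between 10.4 and 23.4 FPKM.

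In all, 34 of the 93 genes did not pass the minimum in any comparison. They were 10 axonemal heavy chains, 13 kinesins, many of which serve the spindle and cytokinesis (KIF11, KIF12, KIF14, KIF15, KIF18A, KIF18B, KIF20A, KIF23, KIF25, KIF2B, KIF2C, KIF4A and KIF4B), the muscle heavy chains MYH1, MYH2, MYH3, MYH4, MYH8, MYH13 and MYH15, and MYO18B, MYO1A, MYO3B and MYO7B. Markers of dividing cells were mixed in level. Of 9 found, 4 passed the minimum between origins in each region, while TOP2A lay between 0.0737 and 0.141 FPKM. Their sums were 31.4 Chinese-origin and 31.3 Indian-origin FPKM in CER, 21.8 and 19.4 in STR, and 21.9 and 19.6 in PFC. Reads of near-identical copies such as KIF4A and KIF4B, or of the neighbouring muscle heavy chains, may be split between them, and their single values are uncertain.

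**Figure D1:**
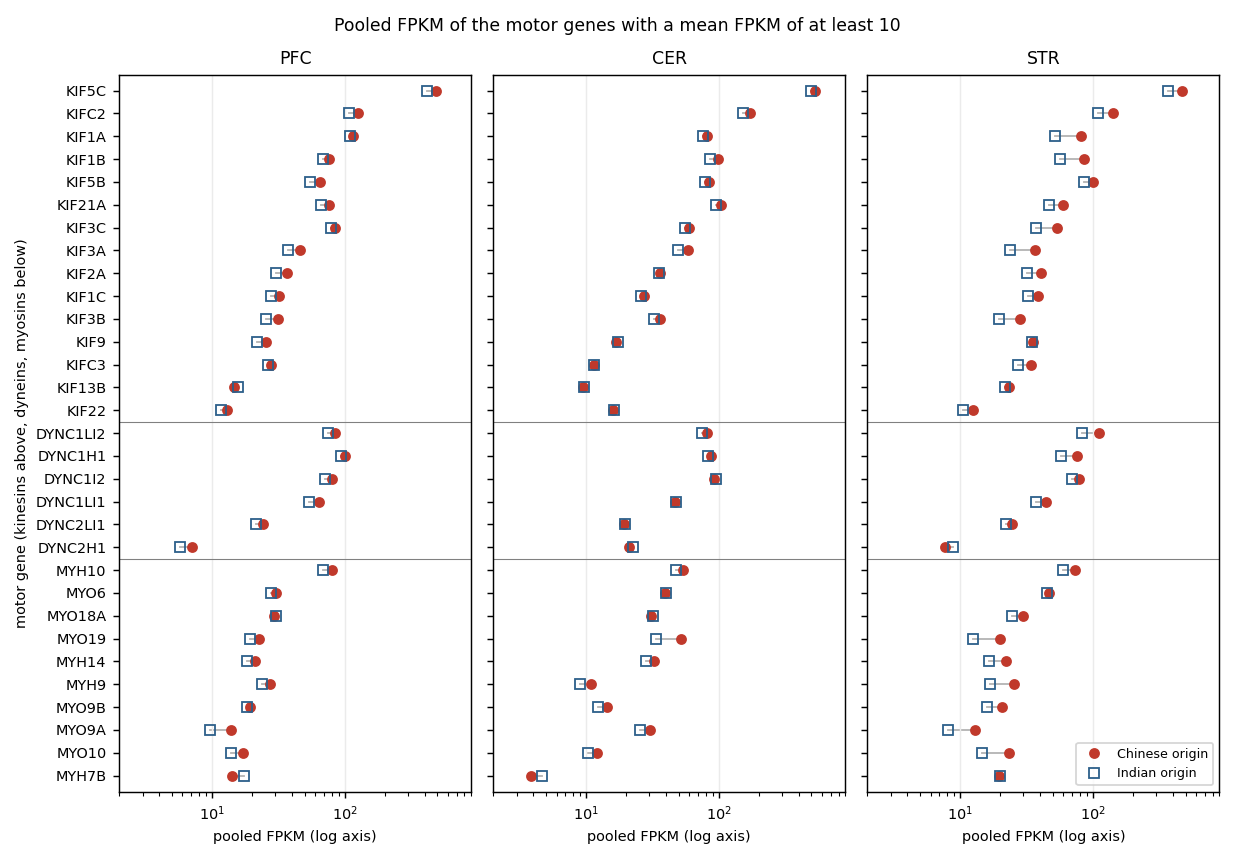
Pooled FPKM (x axis, log scale) of each motor gene with a mean FPKM of at least 10 over the 6 values, MYH16 aside, in PFC, CER and STR, with filled circles for Chinese origin and open squares for Indian origin. KIF5C stands highest in every panel, and the median log2 ratio between the origins, over the motor genes past the minimum of 1, is 0.38 in STR, 0.12 in CER and 0.22 in PFC.

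Between origins, motor genes differed most often in STR. Past 1.5-fold higher in Chinese-origin STR were 18 of 55 motor genes (32.7%), beside 16.7% of all genes, and 0 were lower, beside 1.87%. Relative to the all-gene median, 5 of 55 were higher (9.09%), beside 5.42%, and 0 were lower, beside 3.42%. The median log2 ratio of Chinese over Indian origin was 0.38 over the motor genes and 0.31 over all genes, with 51 of 55 motor genes above 0, beside 88.6% of all genes. The 18 were 7 of 24 kinesins, 0 of 6 dyneins and 11 of 25 myosins found by symbol.

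Myosins led the STR differences. MYO16, an unconventional myosin of neurons, had 1.43 FPKM in Chinese-origin against 0.701 in Indian-origin STR, a log2 ratio of 1.03. It lies on chr17:88831280-89362229 in mmul1. In the other regions its values were nearly alike, with 2.57 and 2.64 FPKM in Chinese-origin and Indian-origin CER, and 3.60 and 3.44 in PFC. MYH6 and MYH7 encode the alpha and beta heavy chains of cardiac myosin and lie side by side on chromosome 7, so that reads may be split between these similar genes. MYH6 had 3.33 FPKM in Chinese-origin against 1.66 in Indian-origin STR, and MYH7 had 4.58 and 2.33 FPKM, log2 ratios of 1.01 and 0.97. MYH11, the smooth muscle heavy chain, had 1.81 FPKM in Chinese-origin against 0.940 in Indian-origin STR, a log2 ratio of 0.95. MYO1C, a membrane-tethering myosin I, had 2.70 FPKM in Chinese-origin against 1.45 in Indian-origin STR, a log2 ratio of 0.90. These 5 were also the ones past 1.5-fold relative to the all-gene median, with log2 ratios of 0.73 for MYO16, 0.70 for MYH6, 0.67 for MYH7, 0.64 for MYH11 and 0.59 for MYO1C. With a pseudocount of 1, however, the log2 ratio was 0.52 for MYO16 and 0.54 for MYH11, both under 1.5-fold, and 12 motor genes passed in place of 18, MYH16 among the 12. MYO16 and MYH11 were under 1 FPKM in Indian-origin STR and reached the minimum only through their Chinese-origin values.

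Further STR differences were smaller. MYO5B, a vesicle-carrying myosin V, had 1.38 FPKM in Chinese-origin against 0.781 in Indian-origin STR (log2 ratio 0.82). It reached the minimum only through the Chinese-origin value, and with a pseudocount of 1 its log2 ratio was 0.42, under 1.5-fold. KIF21B, a neuronal kinesin-4, had 10.9 Chinese-origin and 6.36 Indian-origin FPKM (0.78), and KIF17, a kinesin-2 known in mice for carrying NMDA receptor vesicles in dendrites, had 11.0 Chinese-origin and 6.65 Indian-origin FPKM (0.73). MYO1D had 14.0 Chinese-origin and 8.72 Indian-origin FPKM (0.69), and MYO10 had 23.4 Chinese-origin and 14.6 Indian-origin FPKM (0.67). The myosin IX gene MYO9A had 12.9 Chinese-origin and 8.10 Indian-origin FPKM (0.67), and the mitochondrial myosin MYO19 had 19.9 Chinese-origin and 12.5 Indian-origin FPKM (0.67). The remaining genes lay just past the threshold, with log2 ratios of 0.66 for KIF19, 0.64 for KIF1A, 0.62 for KIF3A, 0.61 for KIF13A, 0.60 for MYH9 and 0.59 for KIF1B. All 13 of these genes lay within 1.5-fold once the all-gene median was subtracted. Of the 6 cytoplasmic dynein genes found by symbol none passed 1.5-fold in STR, and the closest, the heavy chain DYNC1H1 and the light intermediate chain DYNC1LI2, had 76.2 Chinese-origin and 57.3 Indian-origin FPKM and 111 Chinese-origin and 83.0 Indian-origin FPKM.

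MYH16, a jaw-muscle heavy chain, was listed at 72.0 FPKM in Chinese-origin STR and at 0 in Indian-origin STR and in both origins of CER and PFC. Its locus in the tables spans only 88 bases (chr3:46472861-46472948, mmul1), and no fold is given against a value listed at 0. It also accounts for 72.0 of the 448 FPKM summed over the myosins of Chinese-origin STR, against 290 in Indian-origin STR. The sums of the myosins found by symbol were 319 and 278 FPKM in Chinese-origin and Indian-origin CER, and 339 and 300 in PFC.

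**Figure D2:**
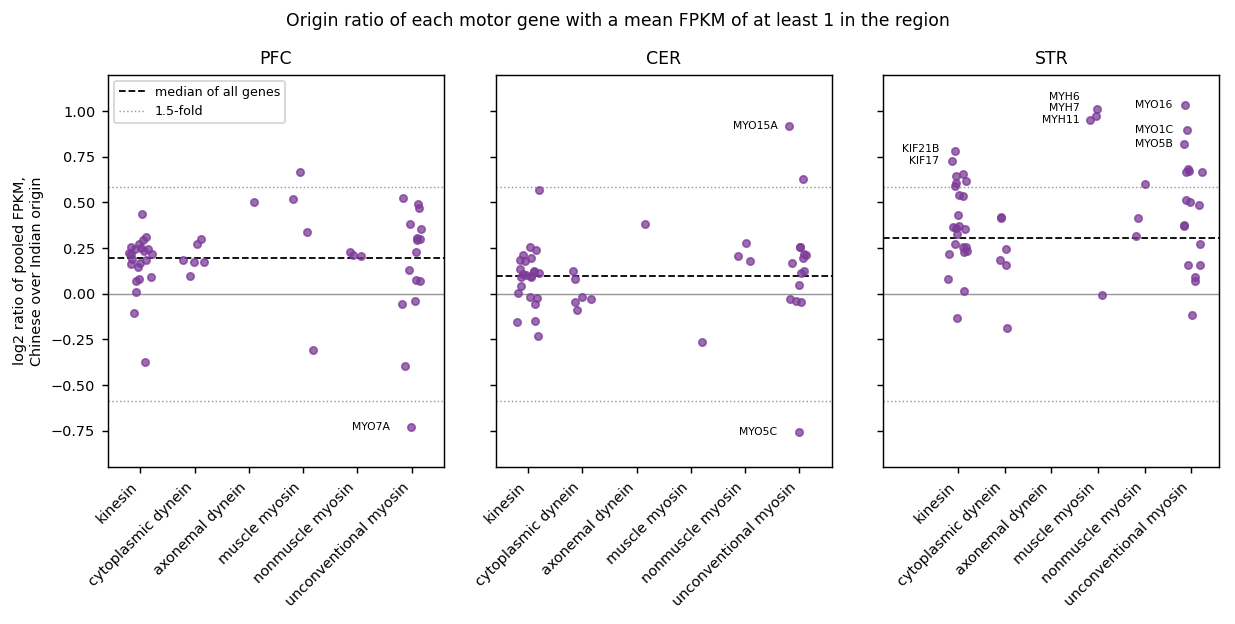
Log2 ratio of Chinese over Indian origin (y axis) for each motor gene with a mean FPKM of at least 1 in the region and a value above 0 in both origins, grouped by motor type. Points are genes, the dashed line is the median of all genes, and dotted lines mark 1.5-fold. In STR 18 genes lie past the upper dotted line, against 2 in CER and 1 in PFC.

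Markers of some other cells moved with the origin in STR. Of the markers of cortical projection neurons, 9 of 11 were past 1.5-fold higher in Chinese-origin STR, with a median log2 ratio of 1.42 and sums of 2344 FPKM in Chinese-origin against 1923 in Indian-origin STR. Relative to the all-gene median 8 of 11 passed. The vesicular glutamate transporter SLC17A7 had 59.6 Chinese-origin and 12.2 Indian-origin FPKM, and the cortical transcription factor TBR1 had 4.82 Chinese-origin and 0.933 Indian-origin FPKM. Smooth muscle and mural cell markers passed 1.5-fold higher in 4 of 8, with a median log2 ratio of 0.62 and sums of 237 Chinese-origin and 150 Indian-origin FPKM, and 0 of 8 passed relative to the all-gene median. Among these, the smooth muscle actin ACTA2 had 15.0 Chinese-origin and 8.21 Indian-origin FPKM, and the pericyte gene RGS5 had 154 Chinese-origin and 93.2 Indian-origin FPKM. Striated muscle markers passed in 0 of 3, with a median of 0.48 and sums of 30.4 Chinese-origin and 21.9 Indian-origin FPKM. Of this list, MYL1 was listed at 0 in all 6 values. Microglial markers passed in 2 of 4, with a median of 0.54 and sums of 114 Chinese-origin and 82.1 Indian-origin FPKM, and in 0 of 4 relative to the median. Of the 9 striatal markers none passed, with a median of 0.10. Of 5 astrocyte, 7 oligodendrocyte and 5 ependymal markers none passed either, with medians of 0.14, 0.31 and 0.38. Among 4 interneuron markers 1 was higher, as was 1 of 4 markers of dividing cells, and 1 of 2 choroid plexus markers was lower. The part of these cells in the motor gene differences was not tested.

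**Figure D3:**
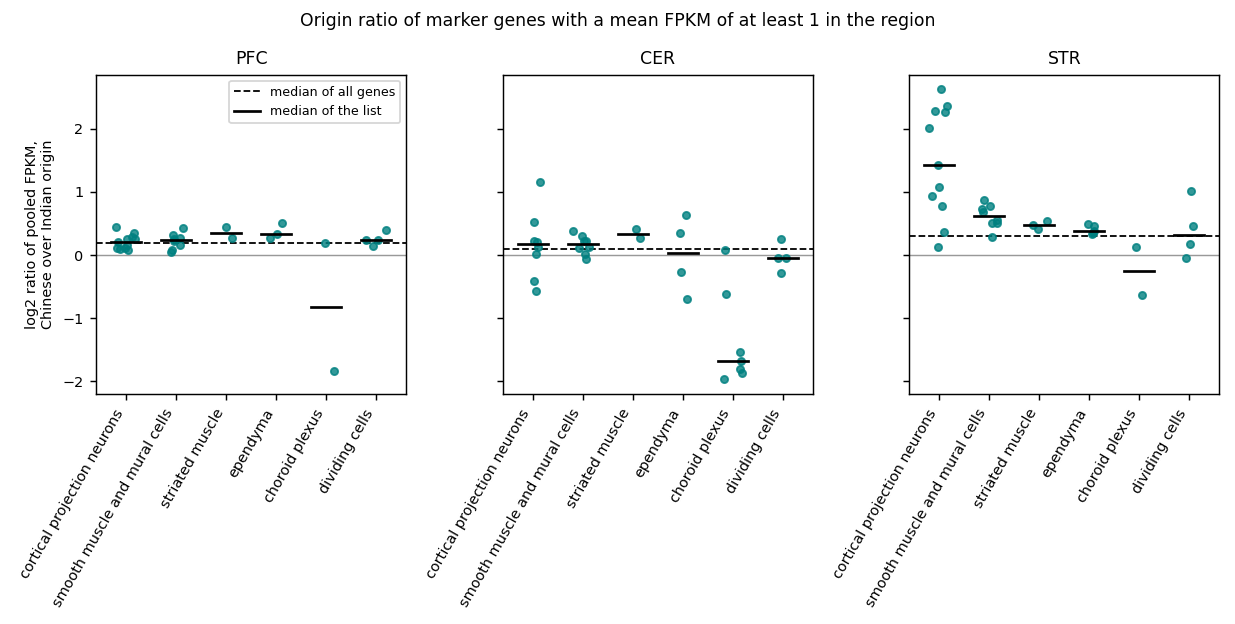
Log2 ratio of Chinese over Indian origin (y axis) for marker genes of 6 cell types with a mean FPKM of at least 1 in the region. Points are genes, short bars are the median of each list, and the dashed line is the median of all genes. Cortical projection neuron markers in STR have a median of 1.42, and choroid plexus markers in CER lie lower in Chinese origin in 6 of 7.

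In CER, 2 of 50 motor genes (4%) were past 1.5-fold higher in Chinese origin, beside 5.32% of all genes, and 1 (2%) was lower, beside 3.21%. Relative to the all-gene median the counts were 1 higher, beside 4.14%, and 1 lower, beside 4.11%. The median over the motor genes was 0.12 and over all genes 0.10. MYO19, at chr16:46455952-46507388 in mmul1, had 52.1 FPKM in Chinese-origin against 33.8 in Indian-origin CER, a log2 ratio of 0.63. MYO15A, a myosin of the stereocilia of inner-ear hair cells, had 2.70 FPKM in Chinese-origin against 1.43 in Indian-origin CER, a log2 ratio of 0.92, and was the one that also passed relative to the median (0.82). MYO5C, a myosin V of secretory cells, was lower in Chinese-origin CER, with 1.82 FPKM against 3.09 FPKM in Indian-origin CER, a log2 ratio of -0.76, which was -0.53 and under 1.5-fold with a pseudocount of 1. In the same libraries 6 of 7 choroid plexus markers were lower in Chinese-origin CER, with sums of 667 FPKM in Chinese-origin against 2110 in Indian-origin CER. The plexus gene TTR had 640 Chinese-origin and 2060 Indian-origin FPKM. The part of these cells in the MYO5C value was not tested.

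In PFC, 1 of 53 motor genes (1.89%) was higher in Chinese origin, beside 5.52% of all genes, and 1 was lower, beside 2.41%. Relative to the all-gene median 0 were higher, beside 2.93%, and 2 were lower, beside 3.50%. The median was 0.22 over the motor genes and 0.19 over all genes. MYH11 had 2.92 FPKM in Chinese-origin against 1.84 in Indian-origin PFC, a log2 ratio of 0.66. MYO7A, a myosin of hair cells and retina, had 2.73 FPKM in Chinese-origin against 4.53 in Indian-origin PFC, a log2 ratio of -0.73. With a pseudocount of 1 these ratios were 0.46 for MYH11 and -0.57 for MYO7A, both under 1.5-fold. MYO15B, with 1.07 Chinese-origin and 1.41 Indian-origin FPKM, passed only relative to the median (-0.59). In the same libraries 0 of 8 smooth muscle and mural cell markers passed, while 2 of 4 microglial markers were higher in Chinese-origin PFC, with sums of 52.9 Chinese-origin and 34.3 Indian-origin FPKM, and 0 of 4 relative to the median. Of 2 choroid plexus markers 1 was lower, TTR with 7.35 Chinese-origin and 26.3 Indian-origin FPKM. The part of these cells in the motor gene values was not tested.

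Among the 93 genes found by symbol, MYO19 and MYH11 were the 2 past 1.5-fold between origins in more than 1 region, in libraries of the same monkeys. MYO19 was past it in CER and STR, and MYH11 in STR and PFC, both higher in Chinese origin. The dynein-2 gene DYNC2I1, listed as WDR60 and so missed by the rule, was past it in CER, STR and PFC, with log2 ratios of 0.75, 1.09 and 0.85. MYO19 in PFC had 22.6 Chinese-origin and 19.3 Indian-origin FPKM, a log2 ratio of 0.23. Relative to the all-gene median MYO19 did not pass in CER (0.53) or STR (0.36), and MYH11 passed in STR but not in PFC (0.47). The share of all genes past 1.5-fold in more than 1 region is not given here.

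Between regions, motor genes were lower in CER more often than higher. Past 2-fold lower in CER than in PFC in both origins were 11 of 54 motor genes (20.4%), beside 8.30% of all genes, and 4 (7.41%) were higher, beside 13.1%. Against STR, 11 of 53 (20.8%) were lower in CER, beside 9.74%, and 5 (9.43%) were higher, beside 13.0%. STR and PFC differed in few. In STR 1 of 54 (1.85%) was higher than in PFC, beside 3.19%, and 2 (3.70%) were lower, beside 4.29%. The region tables were scaled separately and each region was sequenced in a lane of its own, so region and lane cannot be told apart and these ratios are descriptions. The median log2 ratio of CER over PFC was -0.27 for Chinese-origin and -0.14 for Indian-origin motor genes, beside 0.18 and 0.28 over all genes. For CER over STR it was -0.27 in Chinese and -0.13 in Indian origin, beside 0.15 and 0.34, and for STR over PFC it was 0.12 in Chinese and -0.05 in Indian origin, beside 0.06 and -0.04.

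KIF17 had the widest gap between CER and PFC among the 39 kinesins found by symbol. It had 0.497 Chinese-origin and 0.849 Indian-origin FPKM in CER, 11.0 and 6.65 in STR, and 10.9 and 8.05 in PFC. The levels in PFC were 21.9-fold those in CER in Chinese origin and 9.48-fold in Indian origin. MYO5B had 0.152 Chinese-origin and 0.108 Indian-origin FPKM in CER, 1.38 and 0.781 in STR, and 1.90 and 1.97 in PFC. MYO5B levels in PFC were 12.5-fold and 18.3-fold those in CER, while its mean over CER and STR was under the minimum. MYO5B reached the minimum over CER and PFC only through its PFC values. MYH7 had 0.352 Chinese-origin and 0.289 Indian-origin FPKM in CER, 4.58 and 2.33 in STR, and 2.51 and 1.98 in PFC. MYO5C had 1.82 Chinese-origin and 3.09 Indian-origin FPKM in CER, 12.6 and 8.92 in STR, and 10.3 and 8.35 in PFC. MYH7B, a relative of the slow muscle heavy chains, had 3.87 Chinese-origin and 4.64 Indian-origin FPKM in CER, 19.8 and 19.9 in STR, and 14.1 and 17.4 in PFC. In these genes both CER values lay below all 4 values of STR and PFC. The CER values of KIF17, MYO5B and MYH7 were under 1, so the size of their folds is uncertain. Like MYO5B, KIF17 and MYH7 reached the minimum only through the region compared with CER.

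KIF6 of the kinesin-9 class was highest in STR, with 1.25 Chinese-origin and 0.844 Indian-origin FPKM in CER, 6.63 and 5.56 in STR, and 2.56 and 3.31 in PFC. MYH6 also stood lower in CER than in STR, with 0.758 Chinese-origin and 0.415 Indian-origin FPKM in CER against 3.33 and 1.66 in STR. The other genes lower in CER than in PFC were KIF21B, KIFC3, MYH6, MYH9 and MYH11. Those lower in CER than in STR were KIF9, KIF13B, KIFC3, MYO1E and MYO15A. MYH6 and MYH11 had a mean FPKM under 1 in CER and reached the minimum only through the region compared with it. Ependymal markers, which come from ciliated cells, were also lower in CER than in STR in 4 of 5, with sums of 6.31 Chinese-origin and 7.24 Indian-origin FPKM in CER against 30.1 and 22.5 in STR. Oligodendrocyte markers were lower in CER than in STR in 7 of 7, with sums of 3809 Chinese-origin and 4079 Indian-origin FPKM in CER against 12517 and 11388 in STR, and microglial markers in 3 of 4. Against PFC, 3 of 4 ependymal, 4 of 7 oligodendrocyte and 0 of 4 microglial markers were lower in CER. Of 10 markers of cortical projection neurons, 9 were lower and 1 higher in CER than in PFC, and 5 lower and 2 higher than in STR. Of 9 striatal markers, 9 were lower in CER than in STR, and 5 lower and 2 higher than in PFC. The part of these cells in the motor gene values was not tested.

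A smaller set was higher in CER. DYNC2H1, the heavy chain of the dynein-2 motor that returns cargo inside cilia, had 21.3 Chinese-origin and 22.6 Indian-origin FPKM in CER, 7.74 and 8.80 in STR, and 7.03 and 5.72 in PFC. Its second listed locus had 8.83 Chinese-origin and 9.20 Indian-origin FPKM in CER and 2.58 and 2.25 in PFC. A further locus of the gene, listed by identifier only, exceeded both of these loci in every region. This locus had 23.7 Chinese-origin and 24.5 Indian-origin FPKM in CER, 16.3 and 15.0 in STR, and 17.3 and 16.6 in PFC. These CER values were under 2-fold those of STR and PFC, so the difference passed 2-fold only at the loci listed by symbol. KIF20B, a kinesin of cytokinesis, had 2.81 Chinese-origin and 2.47 Indian-origin FPKM in CER, 1.03 and 0.861 in STR, and 0.794 and 0.661 in PFC. Its mean was under 1 in STR and in PFC, so it reached the minimum only through CER. MYO9A had 30.5 Chinese-origin and 25.5 Indian-origin FPKM in CER, 12.9 and 8.10 in STR, and 14.0 and 9.69 in PFC. KIF13A, a kinesin-3 of endosome traffic, had 12.7 Chinese-origin and 11.0 Indian-origin FPKM in CER and 6.11 and 5.12 in PFC. MYO19 had 52.1 Chinese-origin and 33.8 Indian-origin FPKM in CER, 19.9 and 12.5 in STR, and 22.6 and 19.3 in PFC, and passed 2-fold in both origins against STR only. MYO7A had 5.93 Chinese-origin and 5.73 Indian-origin FPKM in CER against 2.48 and 1.77 in STR.

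Between STR and PFC, the myosin I gene MYO1G had 1.42 Chinese-origin and 1.54 Indian-origin FPKM in STR against 0.638 and 0.432 in PFC. DNAH2 had 0.921 Chinese-origin and 0.627 Indian-origin FPKM in STR against 3.04 and 2.15 in PFC, and MYO16 had 1.43 Chinese-origin and 0.701 Indian-origin FPKM in STR against 3.60 and 3.44 in PFC. MYO1G reached the minimum through STR alone, and DNAH2 through PFC alone. With a pseudocount of 1, or with a minimum of 5, 0 motor genes were higher and 0 lower in STR than in PFC. MYO3A, a myosin III, had 1.5 Chinese-origin and 1.34 Indian-origin FPKM in STR and at most 0.111 in the other regions, which kept its mean under the minimum for a region ratio.

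**Figure D4:**
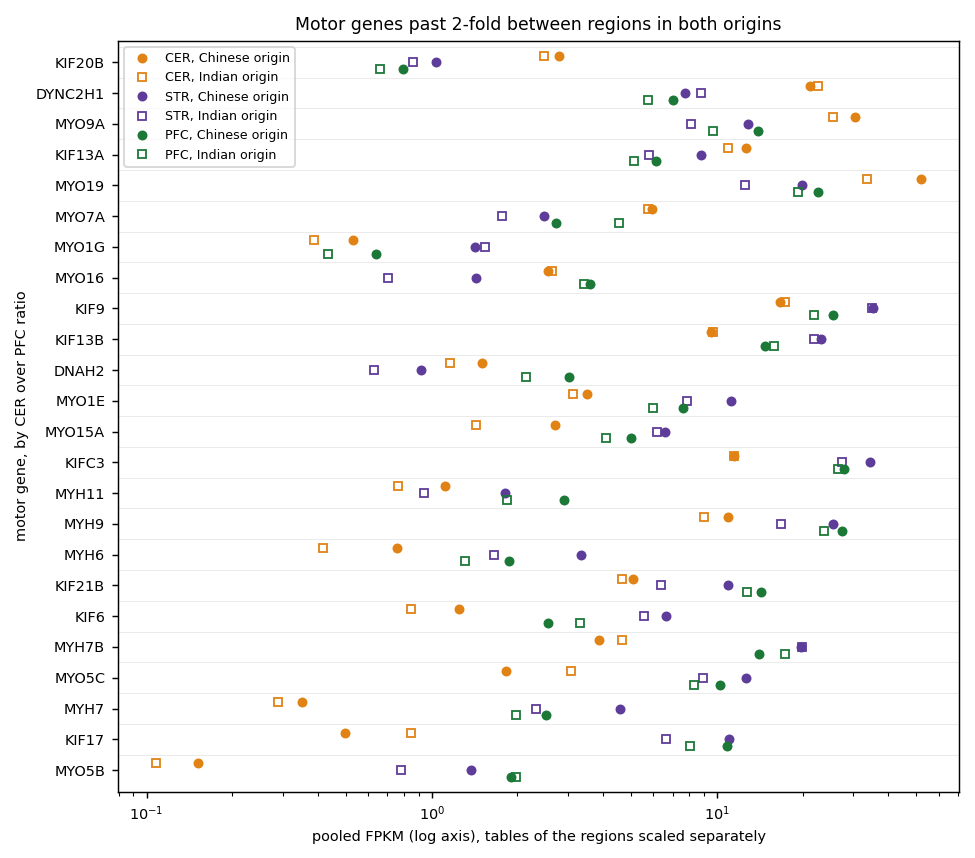
Pooled FPKM (x axis, log scale) of the 24 motor genes past 2-fold between at least 1 pair of regions in both origins, ordered by the ratio of CER over PFC. Colours mark the regions, filled circles Chinese origin and open squares Indian origin. From KIF17 and MYO5B at the bottom to KIF20B at the top, the CER values move from below to above those of STR and PFC.

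Partner genes of the motors were described by list. In STR, where 16.7% of all genes were higher, the number past 1.5-fold higher in Chinese origin was 1 of 18 dynactin and dynein regulators, 0 of 4 dynein light chains, 2 of 16 kinesin light chains and adaptors, 2 of 18 intraflagellar transport genes, 2 of 13 myosin light chains and regulators, 3 of 17 tubulins and microtubule-associated proteins, and 0 of 11 axonemal dynein intermediate chains and assembly factors. None of these was past 1.5-fold lower. Relative to the all-gene median 1 of the 18 intraflagellar transport genes passed and 0 in each of the other lists, beside 5.42% of all genes. The microtubule-binding MAP1A had 127 FPKM in Chinese-origin against 77.1 in Indian-origin STR, and tau (MAPT) had 90.6 and 55.1 FPKM. MYL9, the smooth muscle and nonmuscle regulatory light chain, had 23.4 Chinese-origin and 12.9 Indian-origin FPKM. BICD1, which links dynein to cargo, had 7.54 Chinese-origin and 4.63 Indian-origin FPKM, and MAPK8IP2, a kinesin-1 adaptor, had 85.5 Chinese-origin and 55.8 Indian-origin FPKM. In PFC, 2 of 11 axonemal dynein intermediate chains and assembly factors were past 1.5-fold higher, beside 5.52% of all genes, and 0 relative to the median. They were CCDC40 with 2.26 Chinese-origin and 1.45 Indian-origin FPKM and LRRC6 with 2.44 Chinese-origin and 1.49 Indian-origin FPKM. Of the ciliary radial spoke and central pair genes, 1 of 6 was higher in Chinese-origin CER, beside 5.32% of all genes, and 1 of 6 in PFC, beside 5.52%. These were SPAG16 in CER with 15.5 Chinese-origin and 10.1 Indian-origin FPKM, and ROPN1L in PFC with 6.30 Chinese-origin and 4.15 Indian-origin FPKM. Neither passed relative to the median. WDR60 is the older name of DYNC2I1, an intermediate chain of dynein-2, and so a motor gene that the symbol rule missed. It had 13.1 FPKM in Chinese-origin against 7.82 in Indian-origin CER, 9.20 and 4.34 in STR, and 9.85 and 5.46 in PFC. It thus passed 1.5-fold in all 3 regions, with log2 ratios of 0.75 in CER, 1.09 in STR and 0.85 in PFC. Its dynein-2 partners DYNC2H1 and DYNC2LI1 lay within 1.5-fold in every region, and DYNC2LI1 had 19.4 Chinese-origin and 19.7 Indian-origin FPKM in CER, 24.7 and 22.1 in STR, and 24.4 and 21.5 in PFC. Between regions, 2 of 18 dynactin and dynein regulators were past 2-fold higher in CER than in PFC in both origins, beside 13.1% of all genes. These were the dynein adaptors BICD1, with 33.6 Chinese-origin and 29.8 Indian-origin FPKM in CER against 11.2 and 8.69 in PFC, and HOOK1, with 40.0 Chinese-origin and 35.6 Indian-origin FPKM in CER against 11.5 and 8.50 in PFC. The same count, 2 of 18, was found among intraflagellar transport genes, IFT122 with 18.6 Chinese-origin and 15.9 Indian-origin FPKM in CER against 8.57 and 7.40 in PFC, and TTC21B, with 16.0 Chinese-origin and 13.1 Indian-origin FPKM against 6.15 and 5.26.

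Cuffdiff, which made the tables, marked some genes with the status FAIL, meaning that it did not complete their comparison. This was so for 13 motor genes in CER, 11 in STR and 10 in PFC. Among the genes described, DYNC1I2, KIF1B, KIF3A, KIF21B, MYH7B, MYH11, MYO9A and MYO18A had it in all 3 regions, and KIF13A had it in CER and PFC, KIF21A and MYO10 in CER, and MYO7A in STR. The further DYNC2H1 locus listed by identifier had it in all 3 regions as well. Without these genes no motor gene passed 1.5-fold higher in PFC, and in STR 13 of 44 passed higher in place of 18 of 55.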

How the data were processed

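Brain RNA of 6 monkeys was sequenced by the authors from 3 regions. Per the labels and methods, reads were checked with FastQC, aligned to mmul1 with TopHat and compared with Cuffdiff (version 0.0.5 in the submitters' notes) on the iGenome annotation. The authors deposited a table per region, in which a gene has 1 FPKM for each origin, pooled over its 3 monkeys. Its columns of fold change, test statistic, p and q are the authors' own comparison and were not used. The tables hold no read counts, the read numbers per group in the study's supplement were not used, and no interval was computed. In STR, 1 row was left out because it repeated an identifier under another name. Ratios were computed in Python 3.11.15 with numpy 2.4.6 and pandas 2.3.3, with no pseudocount. The code was run on copied FPKM values with known folds put in and no noise, which checks its arithmetic only. Other minimums (0.5 and 5), pseudocounts (0.1 and 1), folds, a median-centred scaling and summed loci were tried. Members named with values were the highest of each motor class, the 12 largest origin ratios per region and direction, and the 5 largest per region contrast, and other genes were chosen after their values were seen. The members and lists were chosen with earlier results of these data known. A marker gene that enters the list counts is not reported here.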

Additional observations from a re-analysis of the deposited data

How the results depend on the processing

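No paired analysis was possible because the pooled columns carry no replicate numbers, and for the same reason no monkey could be left out. Of the counts and medians, 94 values under alternatives stayed close to those reported and 38 moved. For single genes the numbers were 113 and 31. A count could not turn direction, and no median did. Summing loci could change little, as DYNC2H1 alone had a second listed locus. With the all-gene median subtracted, the median log2 ratio was 0.022 in PFC and 0.073 in STR, and the counts higher in Chinese origin were 5 in STR, 1 in CER and 0 in PFC, with 2 lower in PFC and 2 higher in CER than in PFC. With 2-fold for origins, 2 were higher in STR, 0 higher and 0 lower in CER, and 0 and 0 in PFC. With 1.5-fold for regions, 10 were higher in CER than in STR, and 6 higher and 4 lower in STR than in PFC. At a minimum of 5, 11 were higher in STR, 1 higher and 0 lower in CER, and 0 and 0 in PFC. The region counts were then 6 lower in CER than in PFC, 3 higher and 6 lower in CER than in STR, and 0 and 0 between STR and PFC. At a minimum of 0.5, 3 were lower in CER, 2 higher in PFC and 3 higher in STR than in PFC. A pseudocount of 1 gave 12 higher in STR, 0 lower in CER, 0 and 0 in PFC, 3 higher in CER than in STR, and 0 and 0 between STR and PFC. In alternatives chosen after seeing the data, leaving out genes of status FAIL gave 13 higher in STR and 0 higher in PFC. Leaving them out also gave 2 higher in CER than in PFC and 3 higher in CER than in STR. Adding the motor genes listed by identifier or older name gave 2 higher in PFC. The origin counts in CER and PFC rest on 1 or 2 genes each, and without values per monkey their error is unknown.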

Other observations

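The tables list 12 further loci of motor genes by identifier or an older name, which the symbol rule missed, and the reference annotation names them. DYNC2I1, listed as WDR60 and described above, is among them. KIF5A, the third kinesin-1 heavy chain and a neuronal one, exceeded KIF5C in STR and PFC but not in CER. KIF5A had 193 FPKM in Chinese-origin against 166 in Indian-origin CER, 846 and 778 in STR, and 798 and 796 in PFC. MYO5A, the neuronal myosin V, listed as MYOA, had 58.8 and 59.0 FPKM in Chinese-origin and Indian-origin CER, 47.1 and 32.5 in STR, and 53.3 and 47.2 in PFC. DYNC1I1, the neuronal dynein-1 intermediate chain, listed as DNCI1, had 77.9 Chinese-origin and 76.9 Indian-origin FPKM in CER, 66.4 and 55.0 in STR, and 79.9 and 71.9 in PFC. Cuffdiff gave MYO5A and DYNC1I1 the status FAIL in all 3 regions.

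KIF26A and KIF26B, atypical kinesins, differed in the order of the regions. KIF26A had 0.316 and 0.249 FPKM in Chinese-origin and Indian-origin CER, 2.64 and 1.36 in STR, and 3.90 and 3.29 in PFC. KIF26B had 4.57 Chinese-origin and 3.41 Indian-origin FPKM in CER, 0.970 and 0.561 in STR, and 1.57 and 1.15 in PFC. MYO1F, a myosin I of blood and microglial cells, had 2.11 FPKM in Chinese-origin against 1.09 in Indian-origin STR, where microglial markers summed to 114 and 82.1 FPKM. Their part in that value was not tested.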
